A study of Rattus norvegicus with 7 samples.

Results

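Ischemic rat brain was examined for the tumor necrosis factor (TNF) system through 10 genes chosen by name: the cytokine gene Tnf, the receptor genes Tnfrsf1a, Tnfrsf1b, Tnfrsf12a, Fas and Cd40, and the NF-kB genes Nfkbia, Nfkb1, Relb and Birc3. Of these 10 genes, 8 had a probe under their symbol, among 13337 genes with a symbol on the array, and each of the 8 had 1 probe. Tnfrsf1b and Relb had none under their symbol and were not analysed here. Brain RNA of male Wistar rats of 280 to 320 g was measured on 7 Illumina bead arrays, 1 of normal rats without surgery and 1 each at 12, 24, 48, 72, 120 and 168 hrs after embolic middle cerebral artery occlusion (eMCAo), in which an injected clot blocks the artery that feeds much of the forebrain. The labels call the tissue ischemic brain on every array, the normal one included, and give no brain region. They do not say whether an array held 1 animal or a pool. A difference from normal therefore had no test, and precision was limited by having a single array at each time.

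TNF is made as a trimeric cytokine, chiefly by activated microglia and macrophages, and binds TNF receptor 1 on most cell types. Engaged receptors of the family recruit adaptor proteins and ubiquitin ligases, which switch on the IKK kinases. These mark the inhibitor IkB-alpha for destruction and so release NF-kB dimers to the nucleus. Nuclear NF-kB transcribes cytokines, adhesion molecules and survival genes, and it also transcribes Nfkbia, which encodes IkB-alpha, so that the inhibitor is remade and the response is damped. Receptors with a death domain, TNF receptor 1 and Fas among them, can instead assemble a caspase-8 complex. In injured brain the pathway is known for its part in inflammation and in cell survival.

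The promoters of Nfkbia, Tnf and Tnfrsf12a are shown because Nfkbia is the feedback gene and stayed above normal at all times, Tnf passed detection on 1 array only, and Tnfrsf12a lay furthest above normal. Each is the 250 bases upstream of the start in RefSeq (build GRCr8), in lower case, with capitals for matches to the NF-kB consensus decamer or to GGANNTTCC. Both strands were searched, and a match to 1 motif can overlap a match to the other.
Nfkbia, chr6:78597073-78597322, minus strand: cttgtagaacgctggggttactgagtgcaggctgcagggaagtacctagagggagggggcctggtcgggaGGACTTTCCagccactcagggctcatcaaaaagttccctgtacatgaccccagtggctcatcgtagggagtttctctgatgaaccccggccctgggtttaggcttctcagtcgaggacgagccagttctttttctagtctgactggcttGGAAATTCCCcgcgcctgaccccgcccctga
Tnf, chr20:3626435-3626684, plus strand: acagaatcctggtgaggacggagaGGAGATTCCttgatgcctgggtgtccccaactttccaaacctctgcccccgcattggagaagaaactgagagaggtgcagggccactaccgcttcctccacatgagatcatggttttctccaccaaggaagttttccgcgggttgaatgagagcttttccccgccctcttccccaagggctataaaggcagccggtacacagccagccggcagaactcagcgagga
Tnfrsf12a, chr10:13213649-13213898, minus strand: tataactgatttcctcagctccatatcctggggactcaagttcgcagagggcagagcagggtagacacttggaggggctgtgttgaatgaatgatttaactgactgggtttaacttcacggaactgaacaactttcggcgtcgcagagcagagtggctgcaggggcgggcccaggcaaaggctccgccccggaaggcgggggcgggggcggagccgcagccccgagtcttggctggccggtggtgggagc

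The Nfkbia window held 2 separate stretches of matching letters. One, GGACTTTCC, began 180 bases upstream of the start and matched GGANNTTCC only. The other, GGAAATTCCC, began 31 bases upstream and matched both motifs, the decamer on the opposite strand as GGGAATTTCC. Tnf held 1 match to GGANNTTCC, 226 bases upstream, and the Tnfrsf12a window held none. Of 33469 promoter windows of the same length, 6.33% held the decamer, 3.36% held GGANNTTCC and 8.28% held either. The promoter table had windows for 7 of the 10 genes. Fas held 1 stretch that matched the decamer on both strands, and the windows of Tnfrsf1a, Tnfrsf1b and Nfkb1 held no match, although Nfkb1 had 3 matches that lay in or reached into the 50 bases after its start. A match is a description of letters and not of a binding site.

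Tnfrsf1a and Nfkbia, a receptor gene and the feedback inhibitor gene, were at least 2-fold above normal on every array after eMCAo, whereas Tnf itself was barely measured. The 2-fold rule was passed by 4 of the 8 genes at 12, 24 and 48 hrs, by 5 at 72 hrs, by 4 at 120 hrs and by 2 at 168 hrs, and 0 were 2-fold lower at any time. With an offset of 50 in place of 16 before log2 the counts were 2, 3, 3, 3, 2 and 1. Among all genes detected at the time or in normal brain, the shares that passed upward were 2.95%, 4.20%, 5.33%, 7.74%, 8.45% and 4.61% in order of time, and the shares that passed downward were 0.849%, 2.61%, 2.56%, 3.99%, 4.72% and 0.848%. A gene counted as detected when its intensity passed the limit of its array, between 8.72 and 10.1 intensity units. Folds are ratios of background-modelled, quantile-normalized intensities to which 16 had been added. The background model, with means between -11.8 and -10.3 intensity units, also raised the deposited values. Both steps make changes of dim genes come out too small. Where a gene was below the limit on the normal array, its later value was divided by the lowest level still detected there and such a fold is a lower bound, marked "at least". Only 3 of the 8 genes, Tnfrsf1a, Tnfrsf12a and Nfkbia, were detected in normal brain. In whole tissue, more cells of a type and more RNA per cell cannot be told apart.

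**Figure D1:**
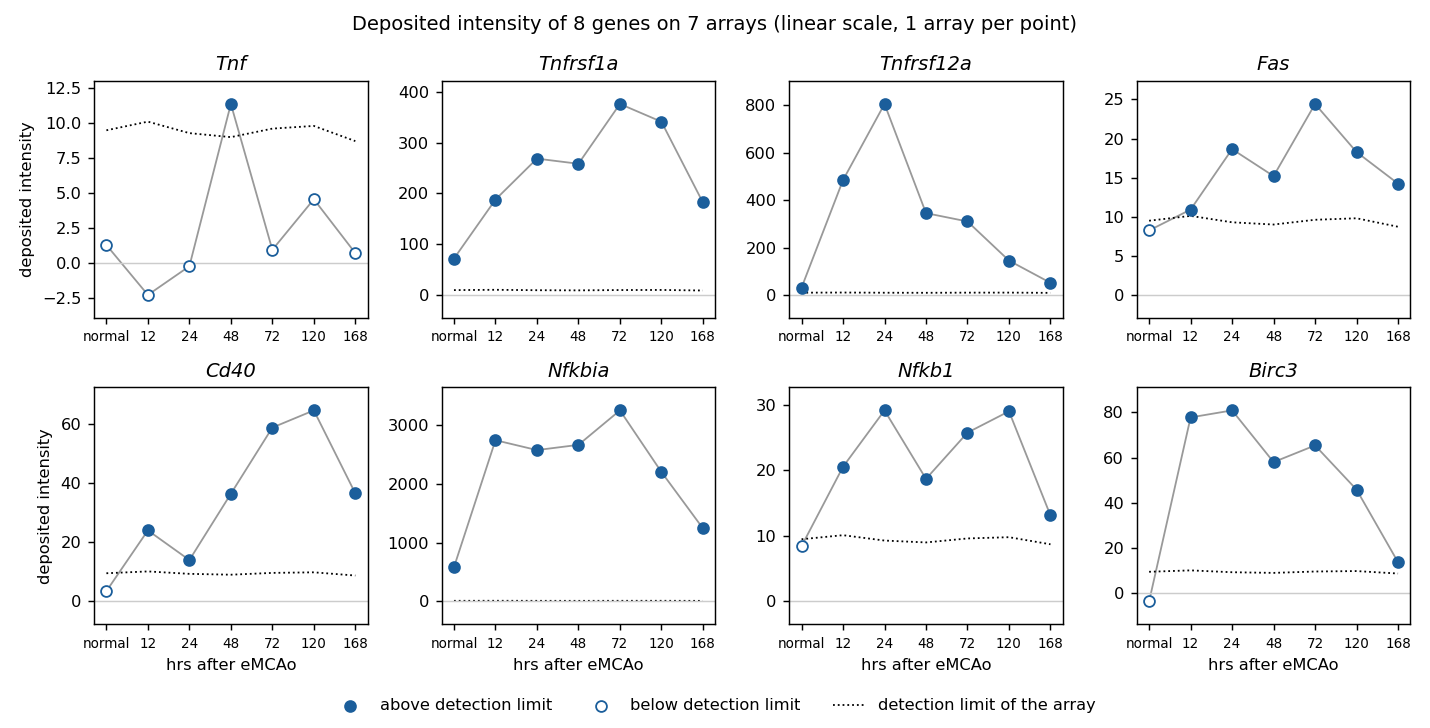
Deposited intensity (linear scale) of the 8 genes on the normal array and on the arrays at 12 to 168 hrs after eMCAo, 1 point per array, with the detection limit of each array as a dotted line and open points below it. Tnf passed the limit at 48 hrs only, Tnfrsf12a was highest at 24 hrs, and Nfkbia stayed between 2199 and 3245 at 12 to 120 hrs.

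Tnf, the ligand, had deposited intensities of 1.30 (normal), -2.27 (12 hrs), -0.219 (24 hrs), 11.4 (48 hrs), 0.955 (72 hrs), 4.57 (120 hrs) and 0.717 (168 hrs). It passed the detection limit at 48 hrs alone, where the limit was 9.00. Its fold at that time was at least 1.03, a lower bound that does not give the size of the difference. At the other times Tnf was below the limit on both arrays, so that no difference could be read. For the ligand genes of 3 of the receptors no 2-fold difference was read, and of these only Tnfsf12 was detected. Tnfsf12, which encodes TWEAK, the ligand of the receptor encoded by Tnfrsf12a, had 20.3 in normal brain and 9.31, 14.3, 29.4, 46.7, 57.1 and 20.6 at the 6 times, and its fold was 1.56 at 120 hrs, after the offset of 16 that shrinks dim differences. Faslg and Cd40lg, the ligand genes of Fas and CD40, stayed at or under 4.31 and 3.35 intensity units on all 7 arrays, below the detection limits, so that no difference could be read. These ligand genes were picked for their receptors, after their values were seen.

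Tnfrsf12a encodes Fn14, the small receptor for TWEAK, which many cell types make after injury. Its intensity was 30.7 in normal brain and 484, 805, 345, 309.7, 145 and 51.1 at the 6 times. It was highest on the 24 hrs array and lower on each later array, down to 6.34% of its peak at 168 hrs. Against normal it was 8.74-fold, 13.4-fold, 6.03-fold, 4.79-fold, 2.53-fold and 1.33-fold higher in order of time, and under 4 other normalizations the fold at 24 hrs ran from 9.00 to 16.1. Among 9202 genes ranked by difference from normal at 24 hrs it held rank 15, and at 120 hrs rank 560 of 9274. Genes not detected in normal brain entered these ranks with their lower bounds, so that the ranks are the best it could hold. With an offset of 50 before log2 its fold at 120 hrs was 1.99 and no longer passed the 2-fold rule.

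Tnfrsf1a encodes TNF receptor 1, the main receptor for soluble TNF. It had 71.6 intensity units in normal brain, then 188, 268, 258, 376, 341 and 182 at 12, 24, 48, 72, 120 and 168 hrs. Every array after eMCAo was above the normal array, and the highest values were those of 72 and 120 hrs. The folds were 2.09, 2.73, 2.67, 3.32, 3.17 and 2.02. Those at 12 and 168 hrs lay at the edge of the 2-fold rule and were 1.83 and 1.78 with an offset of 50.

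Cd40, a co-stimulatory receptor of microglia, macrophages and B cells, was below the detection limit in normal brain, at 3.47 intensity units. After eMCAo it had 24.0, 13.9, 36.3, 58.7, 64.5 and 36.5 in order of time. All 6 arrays were above the limit, and the 120 hrs array was highest. The fold was at least 2.09 at 72 hrs and at least 2.25 at 120 hrs, and it missed the 2-fold rule at the other times, with at least 1.08 at 24 hrs and at least 1.67 at 48 hrs. With an offset of 50 the fold was at least 1.57 at 72 hrs and at least 1.66 at 120 hrs, and neither passed. The 72 hrs value also failed with a stricter detection limit.

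Fas, the death receptor for Fas ligand, was close to the detection limit throughout. It had 8.25 intensity units in normal brain, and 10.9, 18.7, 15.2, 24.4, 18.3 and 14.2 at the 6 times. All 6 later arrays were above the normal array, with folds of at least 1.01 to at least 1.30, and none passed the 2-fold rule. The lowest level still detected on the normal array was 37.6 after the background model and the offset, so that a gene this dim could hardly pass. Across the receptors the order of the times with the highest intensity was thus 24 hrs for Tnfrsf12a, 72 hrs for Tnfrsf1a and Fas, and 120 hrs for Cd40.

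Nfkbia, the gene of IkB-alpha, had 581 intensity units in normal brain, followed by 2739, 2571, 2659.6, 3245, 2199 and 1241 at the 6 times. The values at 12 to 120 hrs formed a plateau, and that of 168 hrs lay between the plateau and normal. The folds were 4.46, 4.08, 4.20, 4.31, 3.15 and 2.05, and it stayed past the 2-fold rule at all 6 times under 4 other normalizations. With such genes again at their bounds, its rank was at best 61 of 9142 at 12 hrs and 401 of 9176 at 168 hrs.

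Birc3 encodes cIAP2, a ubiquitin ligase that joins the TNF receptor complex and is itself a known NF-kB target. It was at -3.59 intensity units in normal brain and at 77.7, 80.8, 58.0, 65.3, 45.8 and 13.7 over the 6 times. It was thus not detected in normal brain, high at 12 and 24 hrs, and only just over the limit of 8.72 at 168 hrs. The fold was at least 2.89, 2.85, 2.24, 2.27, 1.81 and 1.14 in order of time. With an offset of 50 it was at least 1.99 at 12 hrs and less at the other times, so that no array passed. Birc2, its close relative cIAP1, had 272 in normal brain and 560, 588, 389, 559, 510 and 262 at the 6 times, and was never 2-fold away. The 2 genes are similar in sequence, and cross-hybridization of the probes was not tested.

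Nfkb1 encodes p105, the precursor of the p50 subunit. It had 8.44 intensity units in normal brain, just below the limit of 9.49, and 20.6, 29.2, 18.7, 25.8, 29.0 and 13.1 at the 6 times. All 6 were above the limit, with folds of at least 1.12 to at least 1.48, and none passed the 2-fold rule. As with Fas, a gene this dim could hardly pass it.

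**Figure D2:**
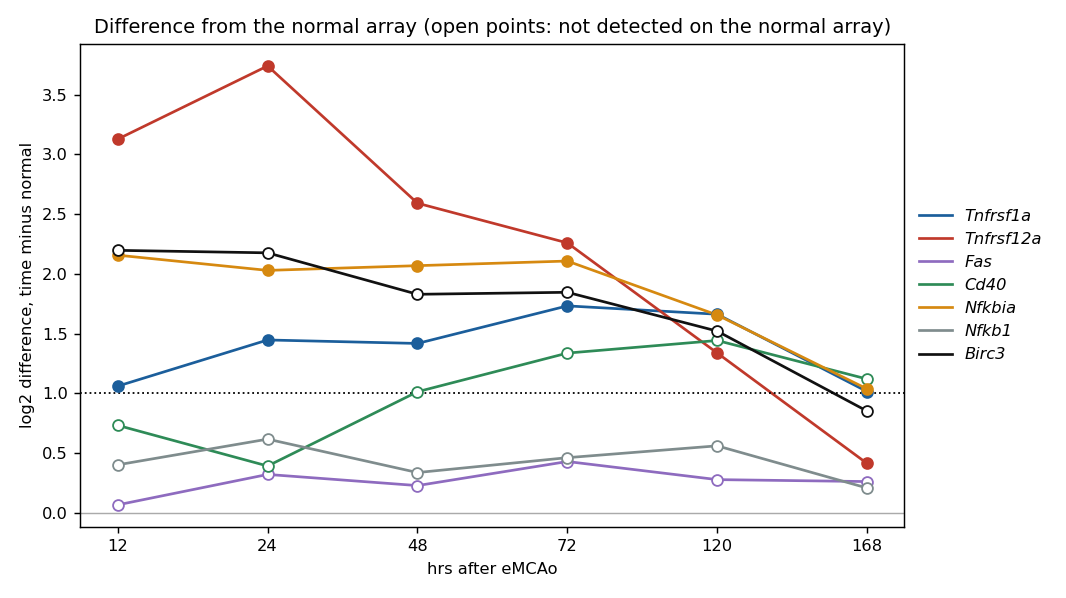
Difference from the normal array (time minus normal, normalized log2 scale) of 7 of the genes at 12 to 168 hrs after eMCAo, 1 array per point, with 1 (2-fold) dotted and open points where the gene was not detected on the normal array. Tnfrsf12a lay highest to 72 hrs with 3.74 at 24 hrs, and Fas and Nfkb1 stayed under 0.62. Open points are measured differences and can lie above 1 where the bound, which was used for the 2-fold rule, does not.

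The other genes of the pathway were read from lists chosen by role, with counts out of the genes on the array. A gene undetected on both arrays could not pass, so these counts make lower shares than counts out of detected genes. Over all genes detected at the time or in normal brain, the shares that passed upward were 2.95%, 4.20%, 5.33%, 7.74%, 8.45% and 4.61% in order of time. Among 13 TNF superfamily ligands on the array, 1 passed the 2-fold rule upward at 72, 120 and 168 hrs and 0 earlier, and 1 passed downward at 24 hrs. Of the 13 ligands, 8, 8 and 7 were detected at 72, 120 and 168 hrs or in normal brain, the basis of the shares over all genes. A count of 1 among so few says little beside those shares, and 2.61% of all genes passed downward at 24 hrs. The ligand gene that passed upward was Tnfsf13b, the gene of the B-cell survival factor BAFF. It had 2.72 intensity units in normal brain, -0.419, 5.46, 45.0, 124, 198 and 104 at the 6 times, with a fold of at least 5.50 at 120 hrs. The one that passed downward was Tnfsf13, the gene of the related factor APRIL, with 263 at 24 hrs against 578 in normal brain. Among 20 receptors, 2, 2, 2, 3, 3 and 1 passed in order of time, and each of these was Tnfrsf1a, Tnfrsf12a or Cd40.

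Of 15 adaptor, ubiquitin ligase and death signaling genes 2, 4, 5, 4, 4 and 1 passed upward in order of time, Birc3 among them at 12 to 72 hrs, and 0 passed downward. Bid, whose protein carries the caspase-8 signal to mitochondria, had 11.4 intensity units in normal brain and 53.1, 76.9, 113, 100.1, 119 and 50.9 at the 6 times. It passed at all 6, with 3.56-fold at 48 hrs. Ripk3, the kinase of necroptosis, was not detected in normal brain and had a fold of at least 3.01 at 120 hrs. Fadd, the adaptor that binds caspase-8 to death receptors, was not 2-fold away at 12 hrs (17.4 against 18.7 in normal brain) and was 3.32-fold higher at 72 hrs. Adam17, the protease that sheds TNF and its receptors, passed at 120 hrs alone, at 2.28-fold. Cflar, named after its values were seen, encodes the caspase-8 inhibitor FLIP and had 237 in normal brain and 458, 1092, 915, 220.1, 165 and 203 at the 6 times, so that it passed at 24 and 48 hrs alone.

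Of 9 IKK and TAK1 pathway kinases, 0 passed at 12, 24, 48, 72 and 168 hrs and 1 at 120 hrs, Map3k8 (Tpl2, at least 2.11-fold). At 120 hrs 8 of the 9 were detected then or in normal brain. A count of 1 among so few says little beside the share over all genes. Over all 9, detected or not, the median log2 differences from normal were 0.12, 0.12, 0.077, 0.18, 0.53 and 0.17 in order of time, beside -0.069 at 120 hrs over all genes detected then or in normal brain. Of 3 NF-kB subunit genes, Nfkb2, which encodes the precursor p100, passed on all 6 arrays. It had 16.5 intensity units in normal brain and 86.6, 104, 94.9, 118, 148 and 60.0 at the 6 times, or 2.58-fold, 2.89-fold, 2.70-fold, 2.85-fold, 3.50-fold and 2.02-fold higher. Rela, named after its values were seen, had between 86.3 and 117 after eMCAo, against 53.8 in normal brain, and was never 2-fold away.

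Of 10 inhibitor and feedback genes 3, 4, 4, 3, 2 and 2 passed upward in order of time and 0 downward. Besides Nfkbia and Birc3 these were Zfp36 and Tnip2. Zfp36 encodes tristetraprolin, which binds AU-rich elements and speeds the decay of Tnf and other cytokine mRNAs. It had 60.4 intensity units in normal brain and 1112, 956, 626, 608, 621 and 289 at the 6 times, 12.4-fold higher at 12 hrs and 3.47-fold at 168 hrs. Tnip2, an A20-binding inhibitor of NF-kB, was 3.83-fold higher at 24 hrs and 2.26-fold at 48 hrs.

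Known NF-kB target genes of inflammation and survival made up the last list. Of 28 on the array 17, 18, 13, 15, 14 and 11 passed upward in order of time, and 1, the cyclooxygenase gene Ptgs2, passed downward at 120 hrs. Ptgs2, named after its values were seen, had 653 intensity units in normal brain and 3784, 1994, 839, 438, 320.5 and 384 at the 6 times, and had passed upward at 12 and 24 hrs. Over all 28, detected or not, the median log2 differences from normal were 1.69, 1.43, 1.24, 1.28, 1.05 and 0.59, and the medians of all genes detected at the time or in normal brain lay between -0.069 and -0.022. The chemokine gene Cxcl1 had 859 intensity units at 12 hrs and 52.2 at 168 hrs, against 11.2 in normal brain. Ccl2, Il1b and Lcn2, with the largest mean differences beside it, were each above normal on all 6 arrays, with intensities of 1093, 271 and 948 at 12 hrs against 10.4, 14.1 and 22.3 in normal brain. These lists share the normal array, so that its values enter every count.

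**Figure D3:**
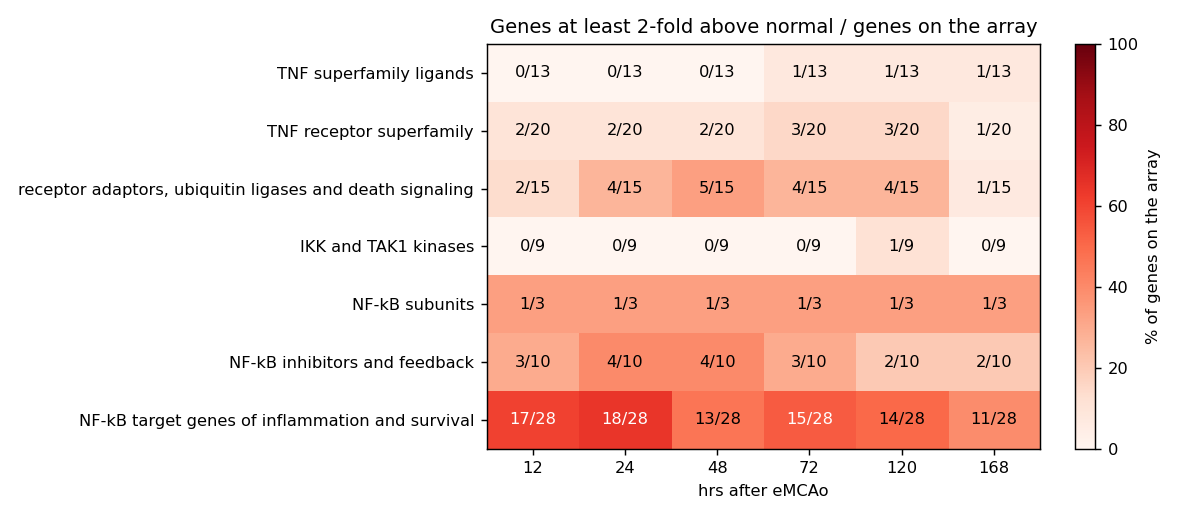
Share of the genes of each list (rows) that were at least 2-fold above normal at 12 to 168 hrs after eMCAo (columns), coloured as percent of the genes on the array, with both counts written in each cell. NF-kB target genes reached 18 of 28 at 24 hrs, and IKK and TAK1 kinases had 1 of 9 at 120 hrs and 0 at the other times.

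The study divides the course after eMCAo into a recovery phase, here the arrays at 48, 72, 120 and 168 hrs, and an acute phase that also takes in earlier times and of which these arrays hold 12 and 24 hrs. In this comparison arrays of different times stand in for replicates, so the spread is that between times and not between animals. No gene of 9449 passed an adjusted p of 0.05 in either direction (0 higher and 0 lower, limma with Benjamini-Hochberg adjustment, two-sided), and the smallest adjusted p was 0.057. At an unadjusted p under 0.05 there were 2209 genes (23.4%), 3 of the 7 genes of the TNF system tested among them. Tnf, detected on 1 array, was not tested. Without the 48 hrs array 570 genes passed and without the 24 hrs array 2 passed, none of the 7 in either case.

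Tnfrsf12a had normalized log2 levels of 7.61 on average in recovery and 9.40 in the acute phase, a difference of -1.78 ± 0.58 (SE, 95% interval -3.15 to -0.41, limma adjusted p = 0.139). The 4 recovery arrays all lay below both acute arrays. Birc3 averaged 6.08 in recovery and 6.75 in the acute phase (difference -0.67 ± 0.29 SE, 95% interval -1.35 to -0.0012, limma adjusted p = 0.213), again with no overlap. Cd40 was the opposite case, with 6.19 in recovery and 5.52 in the acute phase (difference 0.67 ± 0.17 SE, 95% interval 0.26 to 1.07, limma adjusted p = 0.0941) and every recovery array above both acute arrays. How many of all 9449 genes separated without overlap was not counted. Such separation is therefore not shown to be particular to these genes, and 23.4% of all genes had an unadjusted limma p under 0.05. For Tnfrsf1a, Fas, Nfkbia and Nfkb1 the differences of 0.20, 0.11, -0.38 and -0.12 had 95% intervals that spanned 0, that of Nfkbia from -1.08 to 0.33. The sign of the difference for Fas turned without the 12 hrs array, to -0.022.

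**Figure D4:**
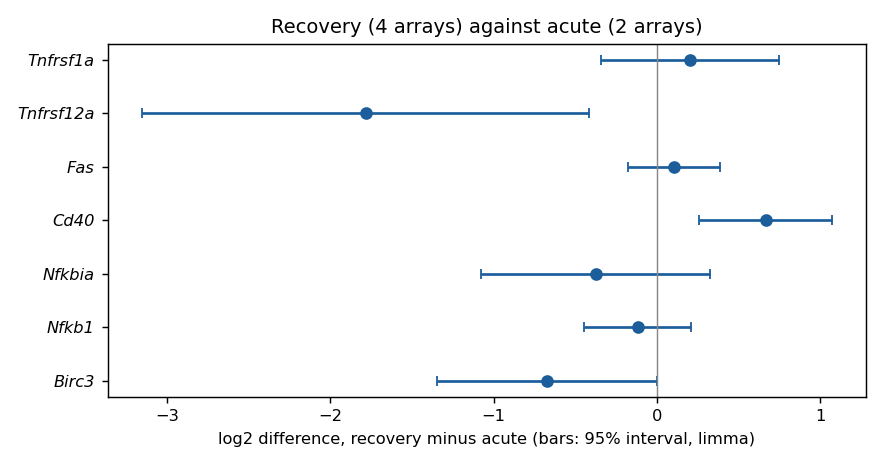
Difference between recovery (4 arrays) and acute (2 arrays) phases on the normalized log2 scale for 7 genes, points with 95% intervals from limma. The intervals of Tnfrsf12a, Birc3 and Cd40 lie off 0 before adjustment over 9449 genes, and none passed after it.

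The courses of the genes were alike to different degrees. Over the 7 arrays, which are single libraries and share the same scaling, the Pearson correlation of normalized log2 levels was 0.98 between Nfkbia and Birc3, 0.94 between Tnfrsf12a and Birc3, and 0.86 between Tnfrsf1a and Nfkbia. The lowest among the 7 genes detected on at least 6 arrays was 0.041, between Tnfrsf12a and Cd40. No difference between these correlations was tested. By a rule set on likeness, the 3 genes closest to Nfkbia over the 7 arrays, among 1911 genes detected on all arrays and ranging over at least 1 log2 unit, were Cebpb (0.99), Gja4 (0.98) and Nuak2 (0.98). For Birc3 they were Mcl1 (0.99), an anti-apoptotic BCL2 relative, Cebpb (0.99), an inflammatory transcription factor, and Sbno2 (0.98). For Tnfrsf12a they were Marchf3, Angpt2 and Akap12 (0.99 each), and for Tnfrsf1a the ceruloplasmin gene Cp (0.99), Spsb2 (0.99) and Ppp4r1 (0.98). For Cd40 they were Pygl (0.99), Slc30a7 (0.97) and Snx20 (0.96). The closest genes to Fas and Nfkb1 were Nxt1 (0.95) and Ccdc50 (0.96). Each of these values is among the best of 1911 candidates over 7 arrays, so that the choice itself favoured high values. Fas, close to the detection limit throughout, still reached 0.95.

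**Figure D5:**
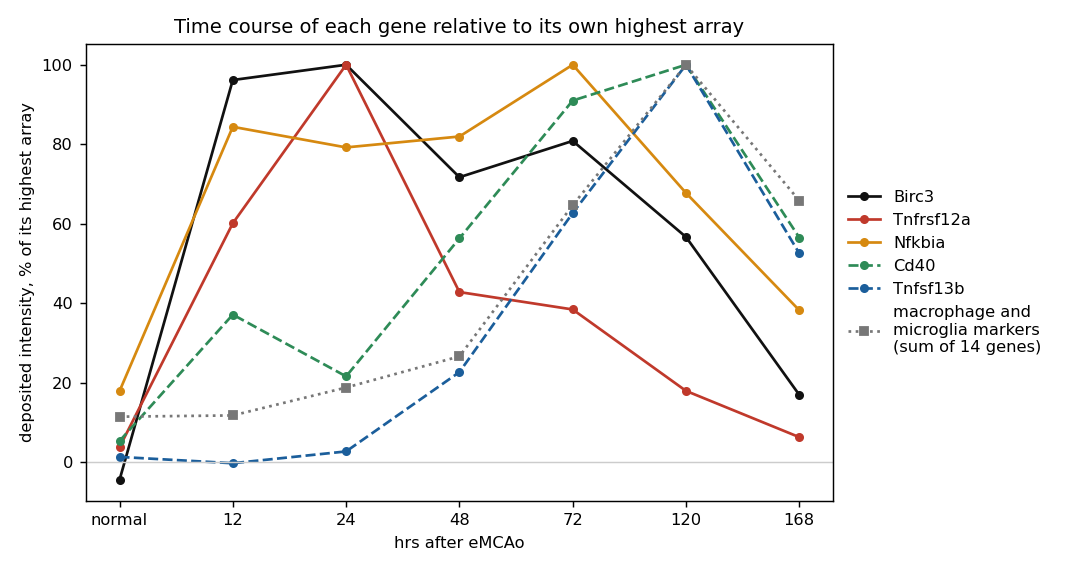
Deposited intensity of Birc3, Tnfrsf12a, Nfkbia, Cd40 and Tnfsf13b, each as percent of its own highest array, and of the sum of 14 macrophage and microglia markers, on the normal array and at 12 to 168 hrs after eMCAo. Birc3 was at 96.2% of its highest at 12 hrs and Cd40 at 37.2%, while at 168 hrs Tnfrsf12a was at 6.34%, Birc3 at 17.0% and Cd40 at 56.5%.

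Markers of cell types moved on the same arrays. Over all genes detected at the time or in normal brain, 2.95% to 8.45% passed the 2-fold rule upward and 0.848% to 4.72% downward. The tissue carried the markers of brain, since 10 of 10 neuron, 7 of 7 astrocyte and 7 of 7 oligodendrocyte markers were detected in normal brain. Neuron markers had median log2 differences from normal of -0.043, -0.32, -0.44, -0.79, -0.90 and -0.45 in order of time, and 4 of 10 passed downward at 120 hrs. Oligodendrocyte markers had their lowest median at 24 hrs, -1.03, where 4 of 7 passed downward. Astrocyte markers had median log2 differences of -0.34, -0.77, -0.44, -0.40, -0.35 and -0.24 in order of time. Of the 7, Gfap alone passed upward, on all 6 arrays, and 2 passed downward at 24 and 48 hrs and 1 at 72 hrs. Of 6 endothelial markers Vwf passed upward at 48 and 72 hrs and Tie1 at 72 and 120 hrs. Macrophage and microglia markers on the array (14 of 16 listed) summed to 6665 intensity units in normal brain and to 6845, 10914, 15451, 37498, 57971 and 38156 at the 6 times, and 13 of the 14 passed the 2-fold rule upward at 120 hrs. The sum was thus highest on the same array as Cd40 and Tnfsf13b, with 15323.5 of it from Aif1 alone. Not every marker followed the sum, since Cd14 was highest at 24 hrs with 1965 and had 610 at 120 hrs. At 12 hrs, where Nfkbia, Birc3 and Tnfrsf12a were already high, 3 of the 14 were higher and 1 was lower. The 3 were Cd14 (13.5-fold, 724 against 27.3 in normal brain), Itgam (2.66-fold) and Fcgr2b (2.27-fold). Ptprc, the pan-leukocyte gene, had 24.7 against 3.97 in normal brain, where it was undetected, and did not pass. Neutrophil markers were all undetected in normal brain, summed to between 98.3 and 455 after eMCAo, against 13.1 in normal brain, with at most 3 of 8 at least 2-fold higher. S100a8 carried most of that sum at 12 to 72 hrs, with 366, 361, 409.5 and 348, and S100a9, Elane and Fpr1 were undetected on all 7 arrays. T and B lymphocyte markers summed to between 47.1 and 885 after eMCAo, against 50.8 in normal brain, and Cd8a alone had 675 at 72 hrs and 723 at 120 hrs. The T-cell marker Cd3e had at most 17.4 after eMCAo, against 27.7 in normal brain, and Cd3d and Cd3g stayed at or under 10.4 and 10.9. Of the B-cell markers Ms4a1 stayed at or under 4.17, below detection, and Cd79b, at 6.01 and undetected in normal brain, had 15.1, 6.58, 9.15, 16.5, 16.5 and 12.5 at the 6 times, below the limit at 24 hrs only. Erythrocyte markers summed to 10888 at 12 hrs and 109 at 168 hrs, against 448 in normal brain, with Hbb and Hba-a1 carrying the sum. Thalamus and hypothalamus markers summed to 418 in normal brain and to 3961, 4728, 3708, 1067, 7464 and 2239.9 at the 6 times, with 5, 3, 1, 2, 4 and 2 of 8 at least 2-fold higher and 1 lower at 48 hrs. A few hypothalamic genes carried these sums, among them Pmch with 5310.2 at 120 hrs and Trh with 3409 at 48 hrs, and the median log2 difference was 0.037 at 24 hrs over the 7 detected there or in normal brain. The part of these cell and region differences in the values above was not tested.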

How the data were processed

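Background-subtracted probe intensity values on a linear scale, deposited by the authors, were used as they stood. The study's methods name BeadStudio, and the submitters' processing notes GenomeStudio 1.8.0. A 5S rRNA normalization is named without saying for which arrays, and the genome build is not given in the sources used here. Per the labels 400 ng of total RNA went on each array, and the 7 arrays sat on 1 chip in the order of time, so that chip position and time cannot be told apart. A table of 48 columns from 12 arrays matched no sample and was not used.

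A normal-exponential background model was fitted to each array (limma 3.58.1, R 4.3.3), an offset of 16 was applied, and the log2 values of 22523 probes were brought to the same quantiles. Genes were named through the platform table, with the brightest probe per gene. Negative values were mirrored about 0, and their 98th percentile served as the detection limit. The size rule asked for at least 2-fold, against the lowest detected level where 1 array was below its limit. Phases were compared with limma (trend, robust) over genes detected on at least 2 of 6 arrays, and the scripts were checked on simulated data. Promoters came from RefSeq GRCr8.

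The genes, lists and rules were chosen with earlier results of these data known. Named were all 8 genes, up to 4 further genes per pathway list by mean difference from normal among those past the size rule, and 3 genes by likeness per gene. Exceptions are marked.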

Additional observations from a re-analysis of the deposited data

How the results depend on the processing

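The counts of genes of the TNF system at least 2-fold above normal (4, 4, 4, 5, 4 and 2 in order of time) stayed within 1.5 times under median scaling, no normalization between arrays, no background model, the mean over probes, a stricter detection limit and a 1.5-fold rule. They also did so with measured differences in place of bounds, which was added after the data were seen and gave 5 genes at 48 and 120 hrs and 3 at 168 hrs. With an offset of 50 they were 2, 3, 3, 3, 2 and 1 in order of time. Dim genes such as Birc3 and Cd40 depend on the offset by its construction. Without the background model Cd40 passed at 168 hrs and Birc3 at 120 hrs. Another scaling moved the share of all calls that were higher than normal by over 10 percentage points at 24, 72 and 120 hrs, from 61.6%, 66.0% and 64.2% as used here to 73.3%, 86.8% and 81.6% without normalization between arrays, and with median scaling to 79.8% at 72 hrs.

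Between recovery and acute phases the count of genes past the threshold was 0, and 13 without the filter on dim genes. Leaving out 1 array at a time gave 0 to 570 genes, with 570 without 48 hrs and 2 without 24 hrs, and the cause was not tested. With 12 or 24 hrs left out, the lone acute array was assumed to vary like the others. In none of these fits did a gene of the TNF system pass, and their adjusted p ran from 0.0588 (Cd40, without 48 hrs) to 0.989 (Tnfrsf1a). Only the difference of Fas turned sign. It ran from -0.022 (without 12 hrs, adjusted p = 0.955) to 0.23 (without 24 hrs) as arrays were left out. No paired analysis was possible because each group had 1 array.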
